A study of Mus musculus with 20 samples.

Results

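The 7 genes described here encode the core of the MHC class II antigen presentation machinery, and they were read in the abdominal aorta of 20 mice. They were chosen by name, as Ciita, H2-Aa, H2-Ab1, H2-Eb1, Cd74, H2-DMa and H2-DMb1, out of 43422 genes in the deposited expression files, and all 7 were found. The study asked how loss of lysyl hydroxylase 1 (LH1, the enzyme that hydroxylates lysines of collagen, encoded by Plod1) changes the response of the aorta to angiotensin II (Ang II), a vasoconstrictor peptide used to induce dissecting aneurysm. WT mice and Plod1-/- mice (KO in the plots) on a C57BL/6 background, labelled 6 months old, carried subcutaneous pumps for 14 days that delivered saline or 1000 ng/kg of Ang II per minute. Each of the 4 groups (WT saline, WT Ang II, Plod1-/- saline and Plod1-/- Ang II) held 5 libraries, each labelled as a separate mouse. The knock-out was not restricted to a cell type, and the study's methods give another age, name the substrain C57Bl/6NCrl and describe male littermates from heterozygous crosses.

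MHC class II molecules are pairs of an α and a β chain that carry peptides from engulfed proteins to the surface of dendritic cells, B cells and macrophages, where CD4+ T cells read them. Their genes are switched on together by the co-activator CIITA, which is itself induced by interferon-γ in many other cell types, including cells of the vessel wall. In the aorta, class II positive cells are known mainly as adventitial macrophages and dendritic cells.

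Ciita (ENSMUSG00000022504, chr16:10480059-10528418, plus strand, GRCm38) encodes that co-activator. H2-Aa (ENSMUSG00000036594, chr17:34282744-34287823, minus strand) and H2-Ab1 (ENSMUSG00000073421, chr17:34257689-34269419, plus strand) encode the α and β chains of the I-A molecule. H2-Eb1 (ENSMUSG00000060586, chr17:34305867-34316674, plus strand) encodes the β chain of I-E, whose α chain gene H2-Ea is disabled in C57BL/6 mice and is annotated as the pseudogene H2-Ea-ps. Cd74 (ENSMUSG00000024610, chromosome 18) encodes the invariant chain, which fills the groove of new class II molecules and steers them to endosomes. H2-DMa (ENSMUSG00000037649, chr17:34119541-34139101, plus strand) and H2-DMb1 (ENSMUSG00000079547, chr17:34153072-34160230, plus strand) encode the H2-M molecule, which exchanges the invariant chain remnant for antigen peptides. All 7 are protein-coding genes, and 5 of them lie in the MHC class II region of chromosome 17.

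The promoters of class II genes are known for an X box, bound by RFX and CREB factors, followed by a Y box, bound by NF-Y, on which CIITA assembles. RefSeq start sites (GRCm38.p6) were at hand for 4 of the 7 members, namely H2-Aa, H2-Eb1, H2-DMa and H2-DMb1, and not for H2-Ab1, Cd74 and Ciita. Within 250 bases before the start, X letters (AAC and, after 2 or 3 bases, TGANG, either strand) stood in 4.68% of 32817 windows and Y letters (GATTGG, either strand) in 14.5%. The X letters followed by the Y letters after 10 to 30 bases, in either orientation, stood in 0.0945% of the windows. That pair stood in the windows of H2-Aa, H2-Eb1 and H2-DMb1, and in those of the related genes H2-DMb2 and H2-Ob. The letters were chosen after these windows had been read, so the matches are a description. The stretches that hold the pair, in 3 of the 4 members with a window and 2 of 4 relatives, are shown with X and Y letters in capitals:

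H2-Aa (chr17:34287852-34287917, minus strand): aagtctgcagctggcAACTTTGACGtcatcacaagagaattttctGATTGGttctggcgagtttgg
H2-Eb1 (chr17:34305763-34305827, plus strand): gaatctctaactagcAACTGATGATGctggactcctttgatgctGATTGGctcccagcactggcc
H2-DMb1 (chr17:34153084-34153149, plus strand): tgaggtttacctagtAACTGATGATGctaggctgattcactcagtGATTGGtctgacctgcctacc
H2-DMb2 (chr17:34145113-34145178, plus strand): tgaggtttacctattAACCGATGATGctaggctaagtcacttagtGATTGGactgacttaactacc
H2-Ob (chr17:34238805-34238867, plus strand): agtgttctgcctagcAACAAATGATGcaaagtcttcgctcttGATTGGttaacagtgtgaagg

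The X letters began 79 bases before the start in H2-Aa, 89 in H2-Eb1 and 92 in H2-DMb1. The gap to the Y letters was 20, 18 and 19 bases. H2-Eb1 and H2-DMb1 carried the same 11 X letters. Neither H2-DMa window held the pair, which says only that these letters are not in those windows.

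Values are FPKM, fragment counts scaled to transcript length and library size, so that levels may be compared between genes. Plod1 was at 22.8 to 29.7 FPKM in the 10 WT libraries and at 0 to 0.0415 FPKM in the 10 Plod1-/- libraries. Xist RNA, which is made from the inactive X of females, stood at 15.1 FPKM in Plod1-/- saline mouse 5 and 7.93 FPKM in Plod1-/- Ang II mouse 1, against at most 0.0328 FPKM in the other 18 libraries, which goes against the study's use of males. FPKM sums were 344207 to 437790 per library, and mitochondrial genes took 8.37% to 29.1% of them. Smooth muscle markers fell in the Plod1-/- Ang II group (6 of 6 against Plod1-/- saline, and 5 of 6, without Tagln, when saline mouse 3 was left out), except that mouse 1 of that group kept an Acta2 level of 14456 FPKM beside 1901 to 5460 FPKM in the other 4 mice. One further library stood apart for the genes described here: Plod1-/- saline mouse 3, so that the members' results it enters are given with and without it, and those of other lists where a call changed.

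The members stood in much the same order of level in all mice. In 15 of 20 mice Cd74 was highest, followed by H2-Eb1, H2-Ab1, H2-Aa, H2-DMb1, H2-DMa and Ciita, and the other 5 mice differed only in the order of Cd74, H2-Eb1 and H2-Ab1 or of the H2-M chains. The classical chains and Cd74 stood at 11.1 to 333 FPKM, the H2-M chains at 1.60 to 24.5 FPKM, and Ciita at 0.0491 to 1.16 FPKM. The ratio of H2-Aa to H2-Ab1 lay between 0.467 and 0.766 over all 20 mice, and that of H2-Eb1 to H2-Ab1 between 0.856 and 1.33, while H2-Aa itself ranged from 11.1 to 174 FPKM. Neighbours in the order thus did not always separate, since H2-Eb1 was above Cd74 in 1 mouse and H2-DMa above H2-DMb1 in 1 mouse, and their ranges over mice overlapped widely.

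**Figure D1:**
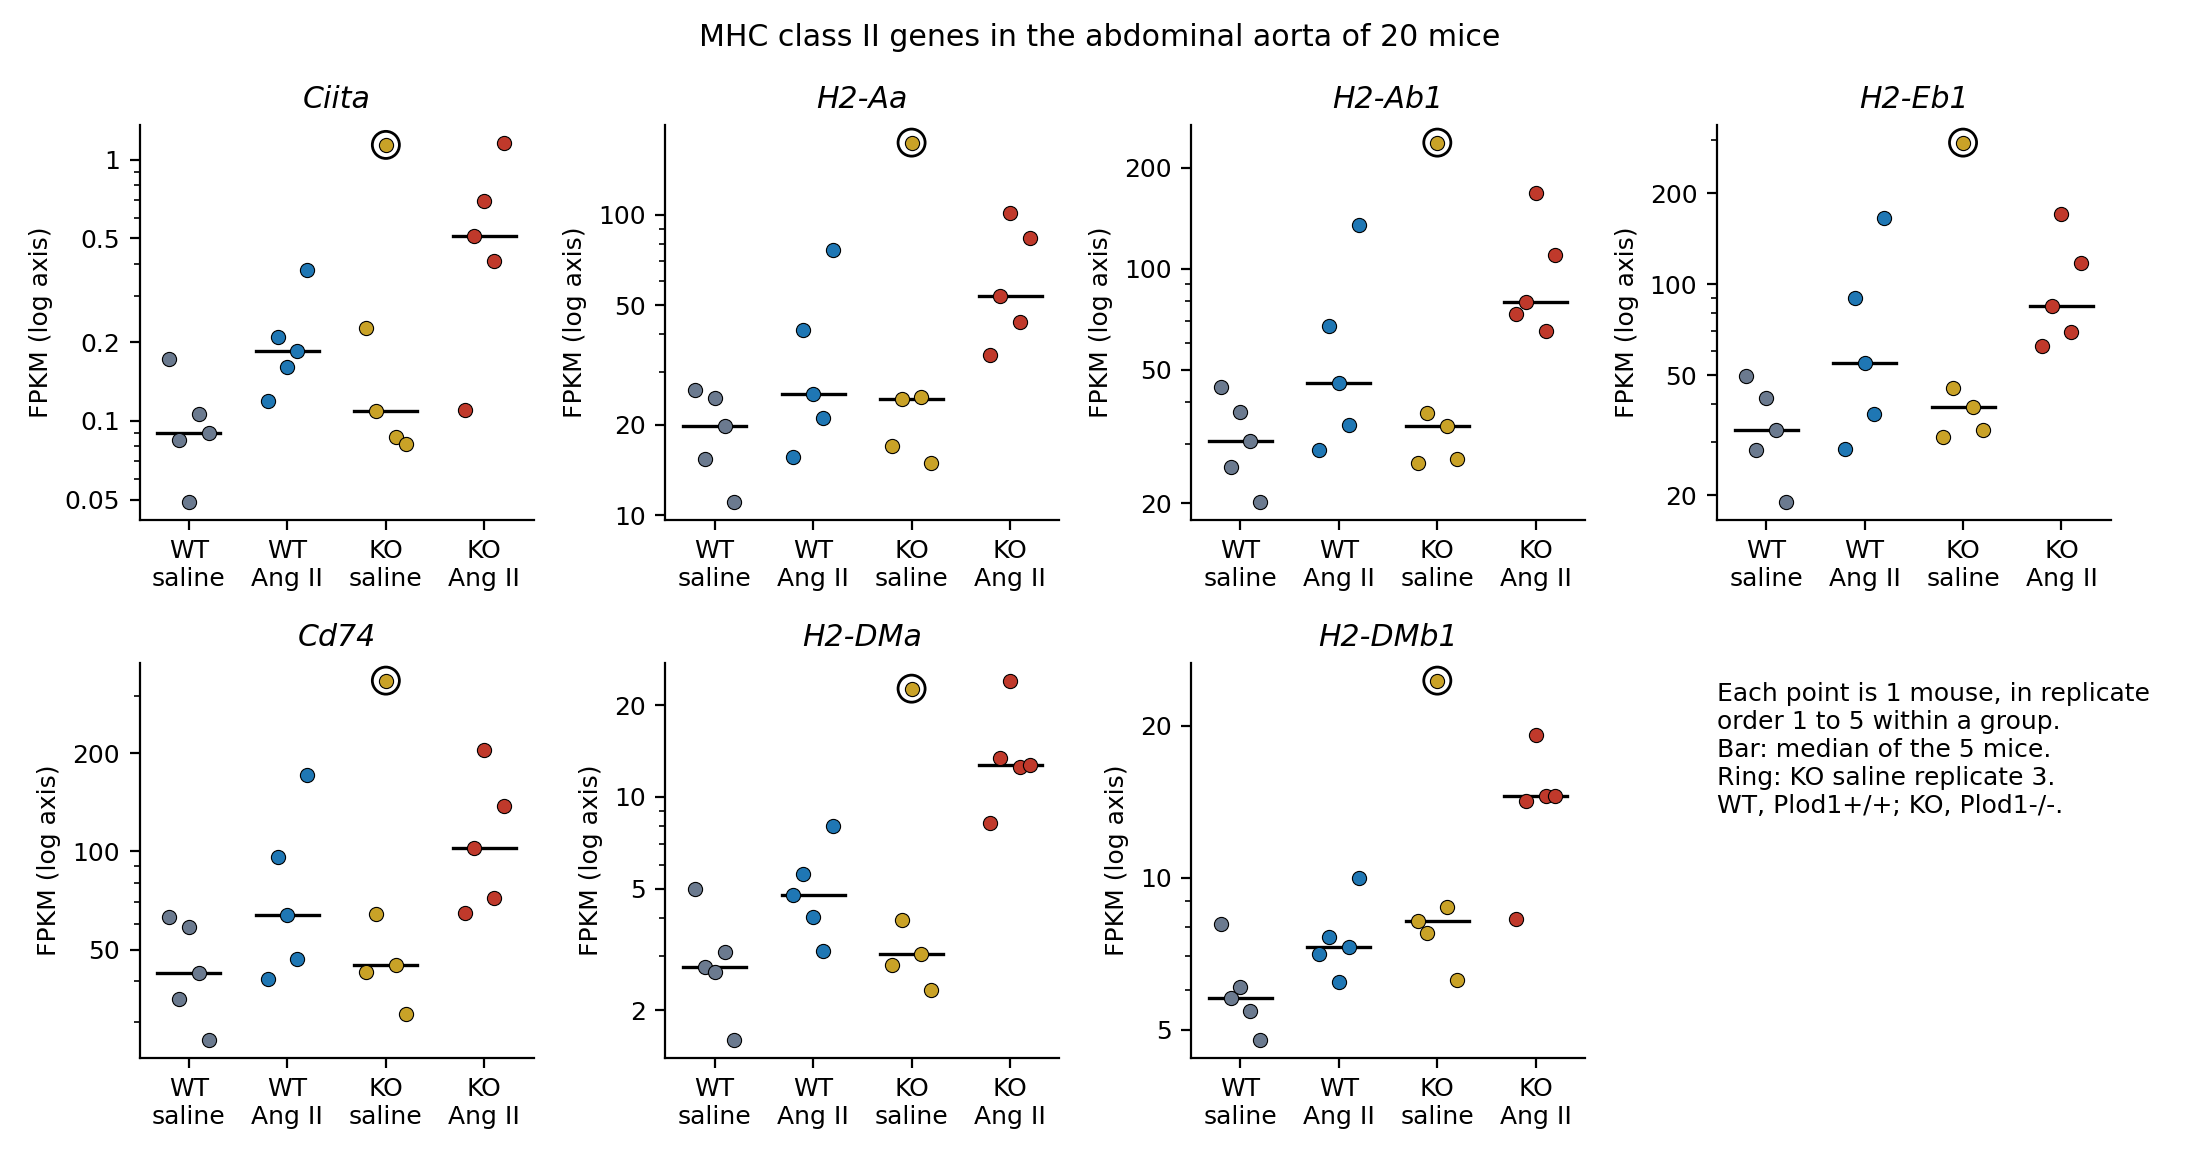
FPKM of the 7 class II genes (log axis) in each of the 20 aortas, by group; points are mice in replicate order, bars are group medians and the ring marks Plod1-/- saline mouse 3. That mouse had the highest of all 20 values for H2-Aa (174 FPKM), H2-Ab1 (237), H2-Eb1 (294), Cd74 (333) and H2-DMb1 (24.5), while the other 4 mice of its group sat near the WT saline mice.

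Ciita was low everywhere and did not reach the level required for the fit (1 FPKM in at least 5 mice). In WT saline mice 1 to 5 it was at 0.172, 0.0844, 0.0491, 0.106 and 0.0895 FPKM, and in WT Ang II mice at 0.119, 0.209, 0.161, 0.186 and 0.377 FPKM. In Plod1-/- saline mice it was at 0.227, 0.109, 1.14, 0.0867 and 0.0815 FPKM, and in Plod1-/- Ang II mice at 0.110, 0.511, 0.696, 0.410 and 1.16 FPKM. The highest values came from Plod1-/- Ang II mouse 5 and Plod1-/- saline mouse 3, and every pair of groups overlapped. On the log2(FPKM + 1) scale the mean difference between WT Ang II and WT saline was 0.13 (exact permutation test, two-sided, p = 0.0238, 3 of 5 above the highest control). Over 14 other settings the p ran from 0.0159 to 0.278, with 0.0556 without WT Ang II mouse 5. Between the Ang II groups the difference was 0.35 (exact permutation p = 0.0714), and 0.47 without Plod1-/- Ang II mouse 1 (exact permutation p = 0.00794, the smallest that 5 against 4 mice can give). The difference in Plod1-/- mice between Ang II and saline was 0.27 (exact permutation p = 0.286), and 0.45 without saline mouse 3 (exact permutation p = 0.0317). That between the saline groups was 0.22 (exact permutation p = 0.270), and 0.03 without it (exact permutation p = 0.548).

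H2-Aa, the I-A α chain, was at 26.1, 15.4, 24.6, 19.8 and 11.1 FPKM in WT saline mice 1 to 5 and at 15.7, 41.3, 25.2, 21.1 and 76.1 FPKM in WT Ang II mice. In Plod1-/- saline mice it was at 17.0, 24.3, 174, 24.7 and 14.96 FPKM, and in Plod1-/- Ang II mice at 34.1, 53.7, 102, 44.1 and 83.9 FPKM. All 5 Plod1-/- Ang II mice stood above 4 of the 5 Plod1-/- saline mice, and mouse 3 of the saline group stood above all of them.

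H2-Ab1, the partner β chain, was at 44.4, 25.7, 37.3, 30.6 and 20.3 FPKM in WT saline mice and at 28.9, 67.6, 45.8, 34.2 and 135 FPKM in WT Ang II mice. It was at 26.4, 37.1, 237, 33.9 and 27.1 FPKM in Plod1-/- saline mice and at 73.1, 79.8, 168, 65.4 and 109.6 FPKM in Plod1-/- Ang II mice. H2-Eb1 was at 49.7, 28.2, 42.1, 32.8 and 19.1 FPKM in WT saline mice, 28.6, 90.2, 54.8, 37.1 and 165 FPKM in WT Ang II mice, 31.3, 45.5, 294, 39.2 and 32.9 FPKM in Plod1-/- saline mice and 62.5, 84.5, 170.3, 69.4 and 118 FPKM in Plod1-/- Ang II mice. Both genes had the pattern of H2-Aa, with WT Ang II mouse 5 as the highest of its group and the lowest Ang II value in WT mouse 1. H2-Ea-ps, the disabled partner of H2-Eb1, was at 0 to 0.897 FPKM.

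Cd74, the invariant chain, was the most abundant member in 18 of 20 mice. It was at 63.2, 35.3, 58.8, 42.5 and 26.5 FPKM in WT saline mice and at 40.5, 96.3, 63.8, 46.9 and 172 FPKM in WT Ang II mice. It was at 42.8, 64.4, 333, 44.8 and 31.7 FPKM in Plod1-/- saline mice and at 64.9, 102, 204, 72.1 and 138 FPKM in Plod1-/- Ang II mice. Without saline mouse 3, the highest Plod1-/- saline value was 64.4 FPKM, just below the lowest Plod1-/- Ang II value of 64.9 FPKM. The share of all genes separated in this way was not computed, and the mouse left out was singled out for its class II values, so that this is a description.

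H2-DMa, the α chain of the peptide exchanger, was at 4.99, 2.77, 2.67, 3.11 and 1.60 FPKM in WT saline mice and at 4.78, 5.58, 4.05, 3.12 and 8.01 FPKM in WT Ang II mice. It was at 2.80, 3.96, 22.6, 3.05 and 2.33 FPKM in Plod1-/- saline mice and at 8.18, 13.4, 24.0, 12.5 and 12.8 FPKM in Plod1-/- Ang II mice. Every Plod1-/- Ang II mouse was thus above every WT Ang II mouse. H2-DMb1, its partner, was at 8.10, 5.77, 6.08, 5.43 and 4.78 FPKM in WT saline mice, 7.07, 7.62, 6.21, 7.28 and 9.97 FPKM in WT Ang II mice, 8.20, 7.78, 24.5, 8.73 and 6.27 FPKM in Plod1-/- saline mice and 8.29, 14.2, 19.2, 14.5 and 14.5 FPKM in Plod1-/- Ang II mice. For H2-DMb1, 4 of the 5 Plod1-/- Ang II mice were above the highest WT Ang II mouse, and mouse 1, which holds Xist RNA, was not.

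The comparison of Plod1-/- with WT mice under Ang II asked how the genotypes differ once infused. H2-DMa was upregulated, from 5.11 ± 1.86 FPKM (SD, n = 5) in WT Ang II mice to 14.2 ± 5.89 FPKM (SD, n = 5) in Plod1-/- Ang II mice. Its log2 fold change on the log2(FPKM + 1) scale, used for all that follow and given with its standard error, came to 1.29 ± 0.27, at an adjusted p of 0.00737 in limma. Of the 6 members tested, 1 was called, that is, passed an adjusted p of 0.05 with a log2 fold change beyond 1, and 7.45% of the 12356 genes tested were called higher. No overlap between the groups, as in H2-DMa, was found in that direction for 10.4% of all genes. Read against these backgrounds, 1 call among 6 is a result about H2-DMa and not about the members as a group. H2-DMb1 had an adjusted p of 0.0146 by limma at a log2 fold change of 0.78 ± 0.20, below the fold required, and 20.8% of all genes were higher by the adjusted p alone. The classical chains and Cd74 lay at 0.92 ± 0.42 for H2-Aa, 0.80 ± 0.40 for H2-Ab1, 0.61 ± 0.45 for H2-Eb1 and 0.54 ± 0.42 for Cd74, with limma adjusted p from 0.119 to 0.344. The median over the 6 members was 0.79, beside 0.12 over all genes tested. In bulk tissue, more class II positive cells and more class II RNA per cell cannot be told apart.

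The H2-DMa difference kept its direction and its call in all 19 other settings, at 1.09 to 1.45, among them 1.45 without the Xist libraries (adjusted p = 0.00246, limma). Without WT Ang II mouse 5, which had the highest class II values of its group, 3 members were called, where 794 of 12215 genes were called higher. H2-Aa was then at 1.24 (adjusted p = 0.0362, limma) and H2-Ab1 at 1.13 (adjusted p = 0.0340, limma), beside H2-DMa at 1.44. Brd2 overlaps H2-DMa on the opposite strand, and 6.58% of the distinct 100-base stretches of H2-DMa transcripts also occur in those of Brd2, so that reads there cannot be told apart in libraries that do not keep strand. Brd2 itself was at 25.2 ± 2.47 FPKM (SD, n = 5) in WT Ang II mice and 30.8 ± 5.95 FPKM (SD, n = 5) in Plod1-/- Ang II mice, a log2 fold change of 0.27 ± 0.15 (adjusted p = 0.197, limma). H2-DMb1 shares 11.3% of its stretches with H2-DMb2. The 11 macrophage markers moved with this comparison: 9 of 11 rose (median log2 fold change 1.85), as did 4 of 4 neutrophil markers (median 3.52) and Ptprc, the common leukocyte antigen CD45 (1.39 ± 0.33). Markers of other tissues were lower: Ucp1 and Cidea of 5 adipocyte markers (median −1.70), Acta1 and Tcap of 3 tested skeletal muscle markers (median −2.81), and Lmod1 and Smtn of 6 smooth muscle markers (median −0.98) fell. The part of these lists in the H2-DMa result was not tested.

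The comparison of Ang II with saline in Plod1-/- mice asked what Ang II changes without LH1. With all 10 mice, 0 of 6 members were called by limma, where 8.38% of 12333 genes were called higher. At an unadjusted p under 0.05, H2-DMa alone passed. The log2 fold changes were 0.91 ± 0.61 for H2-Aa, 0.98 ± 0.56 for H2-Ab1, 0.74 ± 0.57 for H2-Eb1, 0.66 ± 0.59 for Cd74, 1.34 ± 0.50 for H2-DMa and 0.45 ± 0.33 for H2-DMb1. The smallest adjusted p by limma was 0.0513, for H2-DMa. The median over the 6 was 0.82, beside 0.05 over all genes tested. Macrophage markers (10 of 11, median 2.88) and neutrophil markers (4 of 4, median 5.10) rose in the same comparison, as they did without saline mouse 3 (10 of 11, median 3.14, and 4 of 4, median 5.14), and their part in the class II values was not tested.

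These values depend on 1 mouse. Without Plod1-/- saline mouse 3, 5 of 6 members were upregulated by Ang II, where 8.31% of 12135 genes were called higher. The log2 fold changes were then 1.52 ± 0.32 for H2-Aa (adjusted p = 0.00486, limma), 1.57 ± 0.26 for H2-Ab1 (adjusted p = 0.00182, limma), 1.33 ± 0.28 for H2-Eb1 (adjusted p = 0.00529, limma), 1.85 ± 0.25 for H2-DMa (adjusted p = 0.000728, limma) and 1.24 ± 0.34 for Cd74 (adjusted p = 0.0178, limma). H2-DMb1 had an adjusted p of 0.0159 by limma at 0.76 ± 0.20, short of the fold required. Nothing in the labels sets this mouse apart, so that both sets of values are given. It was singled out for these same class II values. The members' p-values without it, here and elsewhere, thus describe the dependence on this mouse and are no separate test. Without Plod1-/- Ang II mouse 1, H2-DMa was called, at 1.498 ± 0.53 (adjusted p = 0.0386, limma), where 1066 of 12049 genes were called higher. Without the Xist libraries, 0 of 6 were called and the median was 0.77.

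In WT mice, Ang II against saline gave 0 of 6 calls by limma, where 6.38% of 11994 genes were called higher. At an unadjusted p under 0.05, H2-DMa alone passed. The log2 fold changes lay between 0.30 ± 0.15 for H2-DMb1 and 0.89 ± 0.43 for H2-Eb1, with adjusted p from 0.0647 to 0.160 and a median of 0.72, beside −0.14 over all genes tested. All 6 members were higher on average, and WT Ang II mouse 5 was the highest of all 10 WT mice for each of them. Without that mouse the log2 fold changes were 0.21 to 0.54, and no member was called. Without WT Ang II mouse 1, which had the lowest H2-Eb1 value of its group, H2-Eb1 was called at 1.16 ± 0.40 (adjusted p = 0.0446, limma), where 722 of 11822 genes were called higher. When each mouse was weighted by how well it followed its group over all genes, 4 members were called (H2-Aa, H2-Ab1, H2-Eb1 and Cd74), at 1.15 to 1.46. With these weights 942 of 11994 genes were called higher. Adipocyte markers moved with this comparison, with 5 of 5 higher under Ang II (median 4.32), as did Ighm, an immunoglobulin heavy chain (3.03 ± 0.56, adjusted p = 0.00339 by limma), and Acta1 of skeletal muscle, while the smooth muscle markers Cnn1 and Tagln fell. The mitochondrial share of FPKM was 14.6% to 29.1% in WT Ang II mice and 8.37% to 14.6% in WT saline mice. Their part in the class II values was not tested.

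Between Plod1-/- and WT mice under saline, 0 of 6 members were called by limma, where 0.358% of 11999 genes were called higher, and none had an unadjusted p under 0.05. The median was 0.63 with all mice and 0.07 without Plod1-/- saline mouse 3, where the values ran from 0.01 ± 0.21 for H2-Ab1 to 0.32 ± 0.14 for H2-DMb1. Leaving out the Xist libraries gave a median of 0.83.

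The interaction, which asks whether Ang II acted differently in the genotypes, was called for 0 of 6 members by limma, where 9.69% of 13263 genes were called positive, and none had an unadjusted p under 0.05. The estimates lay between −0.16 ± 0.76 for H2-Eb1 and 0.73 ± 0.58 for H2-DMa. The 95% interval for H2-DMa ran from −0.49 to 1.95, and that for H2-Ab1 from −1.28 to 1.69. Without Plod1-/- saline mouse 3 the H2-DMa interaction was 1.25 ± 0.37 (adjusted p = 0.0144, limma), where 9.87% of genes were called positive, and the other 5 members lay between 0.44 and 0.83 with no call. That mouse was singled out for its class II values, so that this p-value is no separate test.

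**Figure D2:**
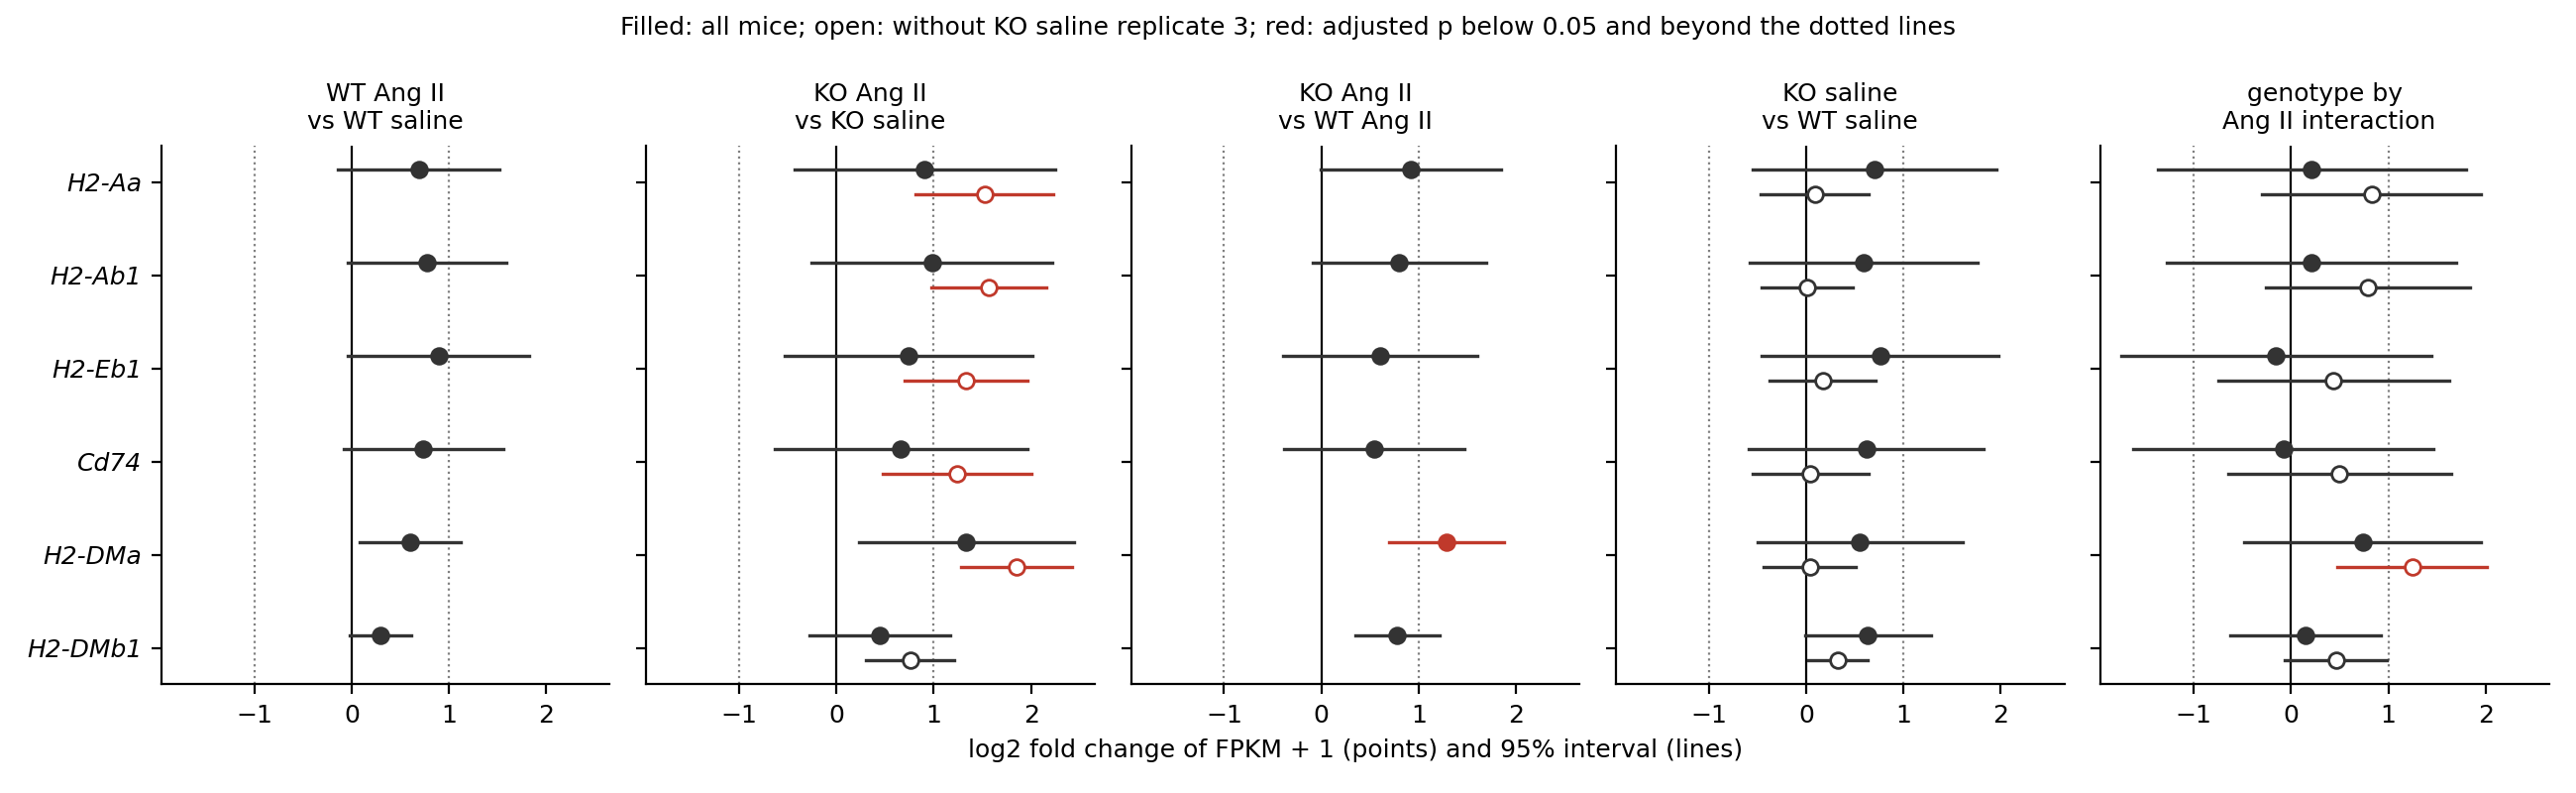
Log2 fold changes of the 6 tested members in 5 comparisons, with 95% intervals; filled points use all mice, open points leave out Plod1-/- saline mouse 3, and red marks a call. With all mice the H2-DMa difference between the Ang II groups (1.29) is the one call, and without the mouse 5 members are called for Ang II in Plod1-/- mice.

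Plod1-/- saline mouse 3, singled out for its class II values, was set against the other 4 saline Plod1-/- mice. Of 13263 genes, 27 stood in it at over 3 times the highest of the 4, after 1 FPKM was added to each value. The same count, each mouse against its own group, was 127 in WT Ang II mouse 1 and 55 in Plod1-/- Ang II mouse 1. It was at most 17 in the rest. The share of all genes that were above the highest of the 4 other saline Plod1-/- mice was not computed. Counts of genes above the highest of the 4, here and in the next paragraph, are thus a description and cannot be called particular to a list. All 7 members were above the highest of the 4, by 3.07 times the median of the 4 for H2-DMb1, 8.43 times for H2-Aa and 11.6 times for Ciita. Of 14 genes that interferon-γ is known to induce, 14 were above the highest of the 4 and 13 were the highest of all 20 mice. The guanylate-binding and immunity-related GTPases, which attack vacuoles of intracellular microbes, were among them: Igtp stood at 65.4 FPKM beside 3.92 to 5.79 FPKM, Iigp1 at 32.1 beside 2.32 to 3.60 FPKM, and Gbp4 at 10.2 beside 0.333 to 0.836 FPKM. Cxcl9, a T cell attractant, stood at 7.82 beside 0.118 to 0.593 FPKM. Ifng, the interferon-γ gene itself, was at 0.676 FPKM in this mouse and at 0 to 0.119 FPKM in the other 19. The summed level of the 14 targets was 223 FPKM, beside 21.7 to 85.0 FPKM in the other 19 mice.

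Of the macrophage markers, 8 of 11 were also above the highest of the 4 in that mouse, at a median of 1.70 times the median of the 4. So were 5 of 6 B cell markers (median 2.60 times) and 1 of 4 T cell markers (median 3.88 times). Summed T cell markers were at 2.30 FPKM in it, below the 5.23 FPKM of Plod1-/- saline mouse 1. Above the highest of the 4 were also 13 of 14 MHC class I genes (median 2.07 times) and 3 of 4 endothelial markers (median 2.11 times). Of the fibroblast markers 0 of 4 were, and of the adipocyte markers 0 of 5. The summed macrophage level was 426 FPKM, beside 96.9 to 305 FPKM in the other 4 saline Plod1-/- mice and up to 403 FPKM in WT saline mice. The receptors Ifngr1 and Ifngr2 and the kinase Jak1 were within the range of the other 4. Ptprc was at 0.364 FPKM beside 0.149 to 0.333 FPKM, Csf1r, the macrophage growth factor receptor, at 11.6 FPKM, and the T cell chain Cd3e at 0.588 FPKM beside 0.0743 to 0.310 FPKM. Haemoglobin RNA was also high in it, with Hbb-bs at 700.4 FPKM beside 28.1 to 83.6 FPKM. Their part in the class II levels was not tested.

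**Figure D3:**
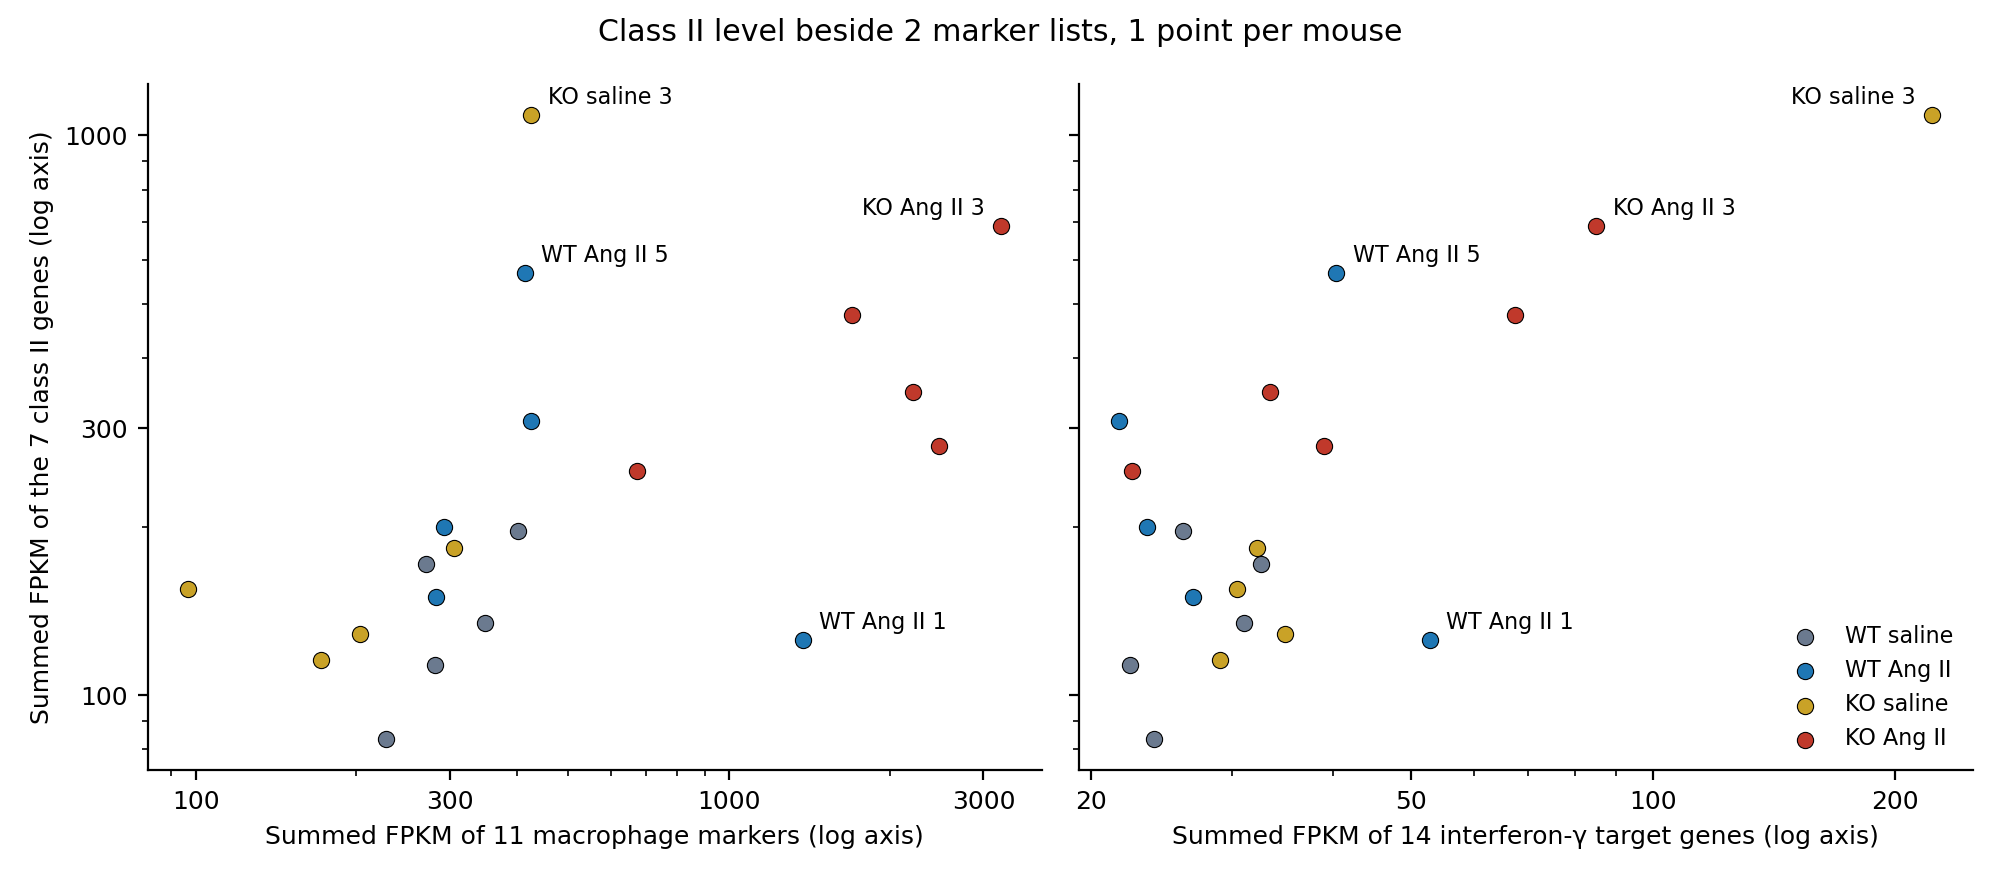
Summed FPKM of the 7 class II genes in each mouse against summed FPKM of 11 macrophage markers (left) and of 14 interferon-γ target genes (right), all axes logarithmic, coloured by group. Plod1-/- saline mouse 3 (1087 FPKM of class II RNA) lies at 426 FPKM of macrophage RNA and at the far right for interferon-γ targets (223 FPKM), and WT Ang II mouse 1 has 1374 FPKM of macrophage RNA with 125.7 FPKM of class II RNA.

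Class II levels and macrophage markers were also set side by side in each mouse. Summed over the 7 members, class II RNA was at 251 to 688 FPKM in Plod1-/- Ang II mice and at 115 to 183 FPKM in 4 of 5 Plod1-/- saline mice, while summed macrophage markers were at 673 to 3240 FPKM and at 96.9 to 426 FPKM in all 5. In WT mice with Ang II, 0 of the 11 macrophage markers were called, and their median log2 fold change was 0.65. With Ang II, Cd68, a lysosomal protein of macrophages, rose by 4.26 ± 0.52 and Csf1r by 2.63 ± 0.53 in Plod1-/- mice (adjusted p of 0.000174 and 0.00260, limma), and the largest log2 fold change of a class II member there was 1.34. Without Plod1-/- saline mouse 3 the values were 4.44 for Cd68, 2.74 for Csf1r and 1.85 for H2-DMa, the largest of a member. WT Ang II mouse 1 had the highest macrophage sum of any WT mouse, 1374 FPKM, with the lowest class II sum of its group, 125.7 FPKM, and WT Ang II mouse 5 had 567 FPKM of class II RNA at a macrophage sum of 414 FPKM.

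Within a mouse, the ratio of Cd74 to Csf1r was 0.856 to 5.43 in Plod1-/- Ang II mice and 4.35 to 28.7 in Plod1-/- saline mice, with medians of 1.90 and 5.56. The mean log2 ratio fell by 1.97 (exact permutation test, two-sided, p = 0.0238), which did not pass adjustment over the 36 ratio comparisons made (adjusted p = 0.214), and by 1.503 without saline mouse 3 (adjusted p = 0.286). The 36 set class II genes against Ptprc, Csf1r, Itgax or H2-Ab1. The lowest p possible for 5 against 5 mice, 0.00794, was reached by 2 of them, and at least 6 would have had to reach it for any to pass an adjusted p of 0.05, so that no single ratio could pass and the adjusted values say little. H2-Eb1 over H2-Ab1 was 1.15 to 1.24 in Plod1-/- saline mice, above the range of Plod1-/- Ang II mice (median 1.06) and that of WT saline mice (median 1.09) (exact permutation p = 0.00794, adjusted p = 0.143 for each, with the saline Plod1-/- mice in both). H2-DMa over H2-DMb1, which was not tested, was 0.861 to 1.25 in Plod1-/- Ang II mice and 0.335 to 0.922 in the other 15 mice.

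**Figure D4:**
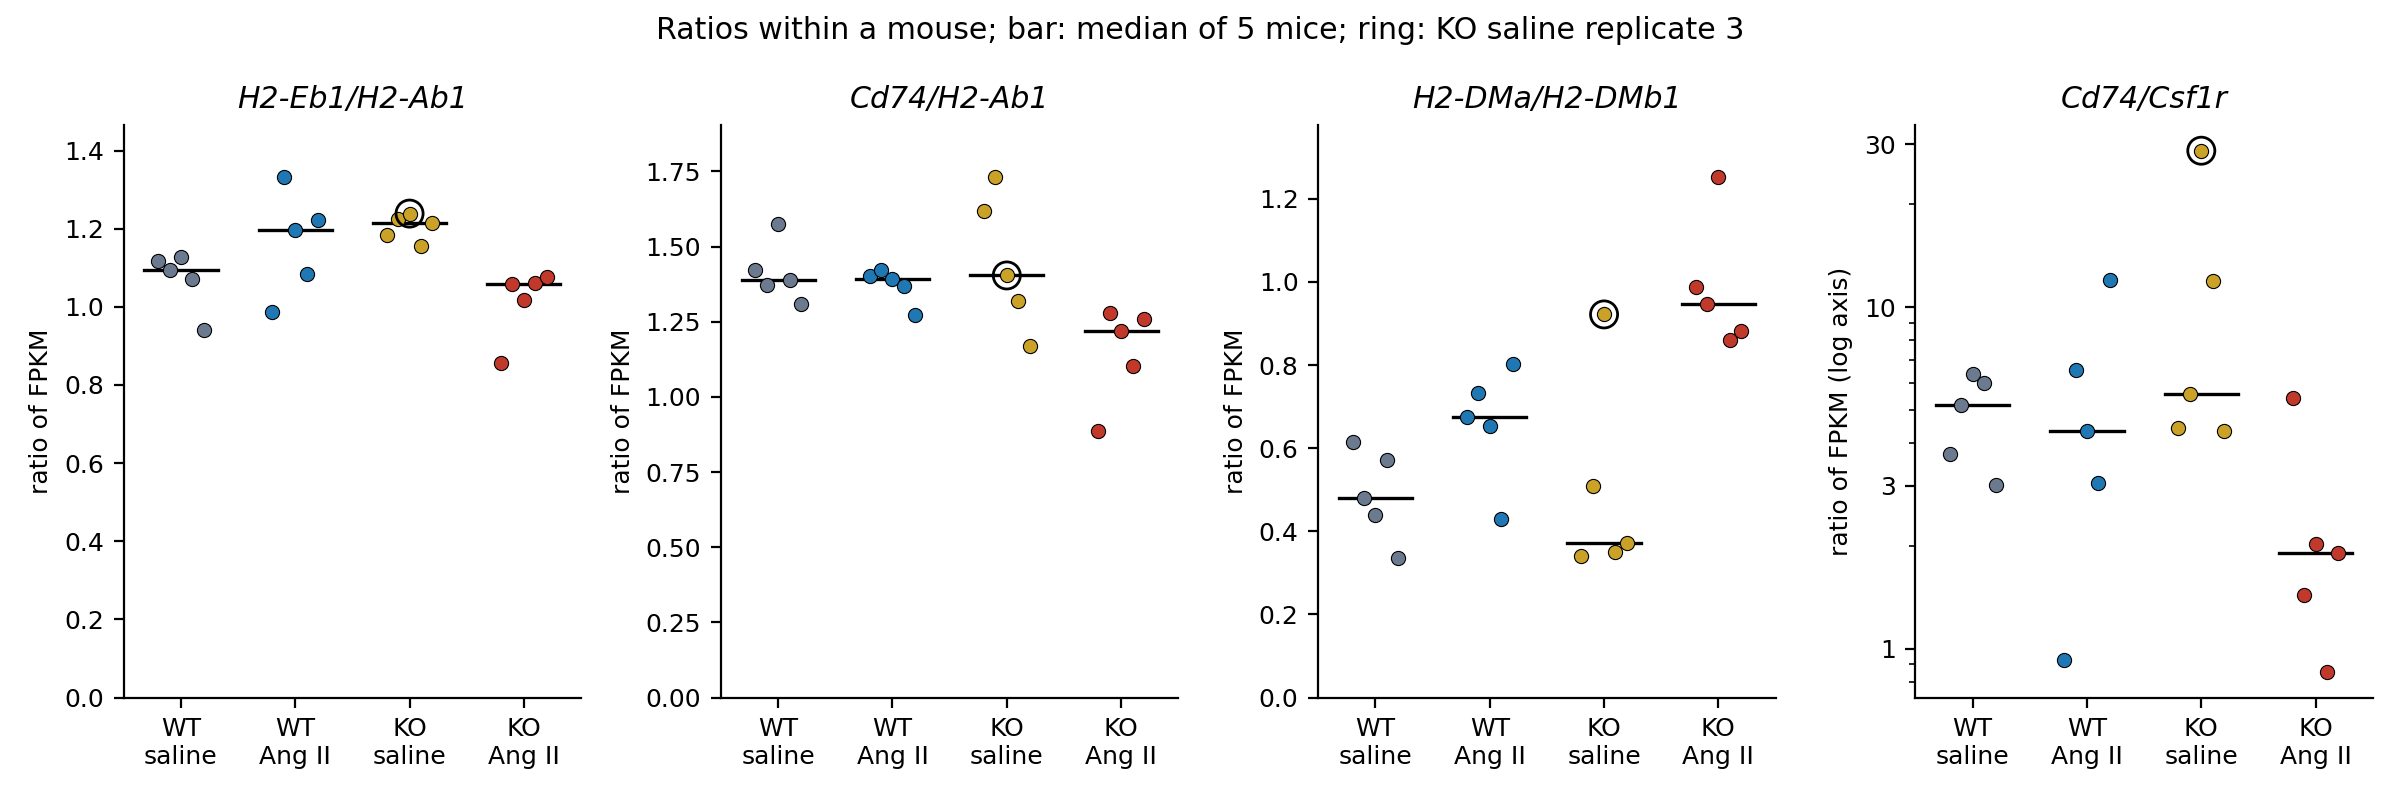
Ratios of FPKM within each mouse, by group, with group medians as bars and a ring at Plod1-/- saline mouse 3; the axes of the left 3 panels start at 0 and the right axis is logarithmic. H2-Eb1 over H2-Ab1 runs from 0.856 to 1.33 and Cd74 over H2-Ab1 from 0.888 to 1.73, while H2-DMa over H2-DMb1 runs from 0.335 to 1.25 and Cd74 over Csf1r from 0.856 to 28.7.

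The transcription factors that CIITA needs were examined as a list. Of 7 (the RFX subunits Rfx5, Rfxap and Rfxank, the NF-Y subunits Nfya, Nfyb and Nfyc, and Creb1), 0 were called in any of the 5 comparisons, and their summed level was 33.8 to 46.9 FPKM in every mouse. Rfxank had an adjusted p of 0.0394 by limma in Plod1-/- mice, at a log2 fold change of −0.31 ± 0.11 with Ang II (adjusted p = 0.0618 by limma without saline mouse 3). The Nfyb interaction had an adjusted p of 0.0283 by limma at 0.49 ± 0.17.

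Among the non-classical relatives, H2-DMb2, a second β chain of H2-M, was at 1.21, 3.65, 3.31, 1.85 and 2.41 FPKM in Plod1-/- Ang II mice and at 0.247 to 1.37 FPKM in WT Ang II mice. It rose by 1.07 ± 0.24 between them (adjusted p = 0.00922, limma) and its interaction was 1.08 ± 0.32 (adjusted p = 0.0135, limma). The 2 groups overlapped in 1 mouse, Plod1-/- Ang II mouse 1. Against Plod1-/- saline mice it was at 0.97 ± 0.24, short of the fold required, and was called without saline mouse 3 (1.14 ± 0.21, adjusted p = 0.00265 by limma). H2-Oa and H2-Ob, the chains of the H2-O molecule that restrains H2-M, and H2-Eb2 were below the level tested, at most at 1.66, 0.849 and 0.224 FPKM, with each maximum in a Plod1-/- mouse.

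Genes of the endosomal steps were examined next. Ctss, the cathepsin that trims the invariant chain, was at 89.8 to 721 FPKM in Plod1-/- Ang II mice and 8.75 to 35.0 FPKM in Plod1-/- saline mice, a log2 fold change of 4.52 ± 0.55 (adjusted p = 0.000172, limma). It also rose in WT mice, by 1.38 ± 0.47 (adjusted p = 0.0381, limma), and the interaction was 3.14 ± 0.77 (adjusted p = 0.00453, limma). Lgmn, the asparaginyl endopeptidase, rose by 2.53 ± 0.40 in Plod1-/- mice (adjusted p = 0.000681, limma). In all, 4 of 9 tested genes of endosomal and lysosomal processing rose in Plod1-/- mice (Ctss, Lgmn, Ctsb and Ctsd), 1 in WT mice (Ctss) and 2 between the Ang II groups (Ctss and Lgmn), and none fell. The 4 in Plod1-/- mice were also called without saline mouse 3. These proteases are also abundant in macrophages, whose markers moved in the same comparisons, and their part was not tested.

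Of the interferon-γ pathway, Irf8, a factor of myeloid cells, rose in Plod1-/- mice by 2.02 ± 0.45 (adjusted p = 0.00426, limma) and between the Ang II groups by 1.59 ± 0.44 (adjusted p = 0.0207, limma). Socs1, a feedback inhibitor of the receptor, rose between the Ang II groups by 1.44 ± 0.28 (adjusted p = 0.00521, limma). The other members of the list tested were not called in any comparison. Without saline mouse 3, Socs1 was also called in Plod1-/- mice with Ang II (1.02 ± 0.30, adjusted p = 0.0250 by limma), as was the Irf8 interaction (1.61 ± 0.51, adjusted p = 0.0205 by limma). Of the 14 interferon-γ targets, 6 to 8 passed the filter in each comparison and 0 were called. Their median in Plod1-/- mice with Ang II was 0.05, and 0.52 without saline mouse 3.

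The MHC class I pathway, which presents peptides from inside the cell, had 1 of 14 genes called, Psmb8, a subunit of the immunoproteasome, in Plod1-/- mice (1.16 ± 0.36, adjusted p = 0.0230 by limma). Without saline mouse 3 it was joined by Psmb9, Psmb10 and Tap1. Markers of other class II positive cells varied in level. Summed dendritic cell markers were at 2.66 to 6.38 FPKM in the other 15 mice and at 4.58 to 13.4 FPKM in Plod1-/- Ang II mice, where Cd209a alone of 2 tested rose with Ang II. Of the B cell markers, Ms4a1 was at most at 0.228 FPKM and Cd79b, a chain of the B cell receptor complex, at most at 4.90 FPKM, while Ighm reached 72.3 FPKM in WT Ang II mouse 1 and 94.4 FPKM in WT Ang II mouse 5, above H2-Aa in the same mice. Ighm was higher in saline Plod1-/- than in saline WT mice (2.40 ± 0.54, adjusted p = 0.0321 by limma), a call lost without saline mouse 3 (2.25 ± 0.59, adjusted p = 0.0688 by limma). The 4 T cell markers did not reach the level tested.

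**Figure D5:**
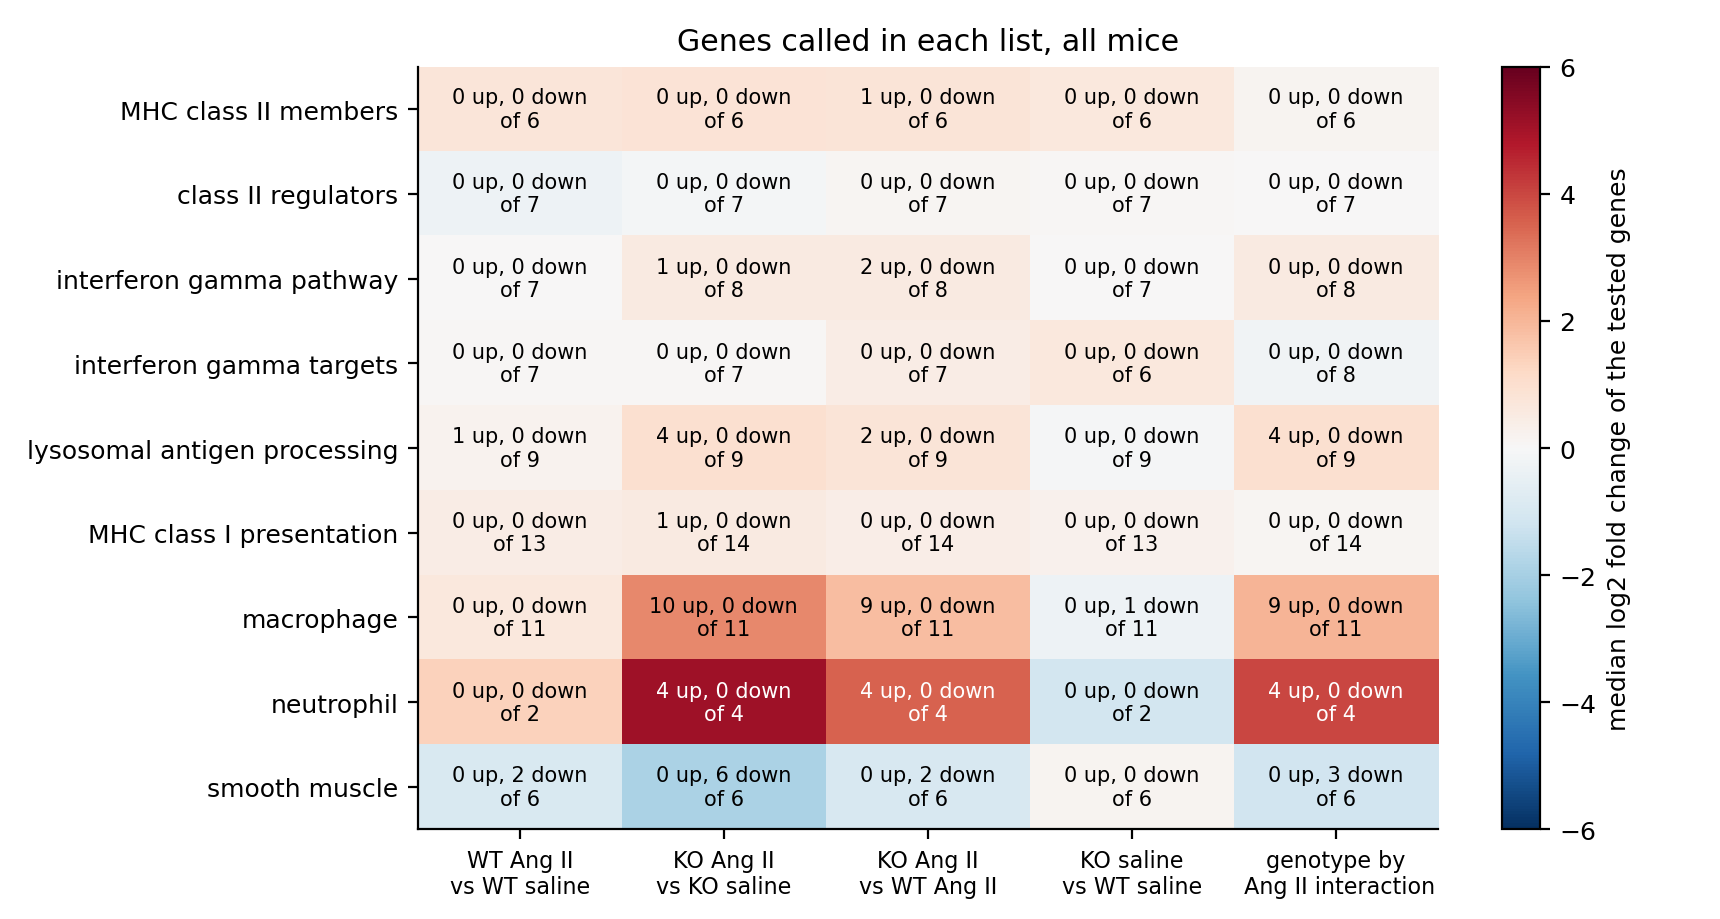
Median log2 fold change of the tested genes of 9 lists (rows) in 5 comparisons (columns), as colour, with the number called up and down of those tested, all mice included. Macrophage and neutrophil markers were called up in the comparisons that hold Plod1-/- Ang II mice, while class II regulators and interferon-γ targets had 0 calls throughout.

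The genes most like the class II members were sought by correlation with their mean standardized level, built from the 6 tested members, over 20 mice. The members themselves correlated at 0.93 to 0.99 with that mean, to which each contributes. Of 13263 genes, the 10 nearest included Psmb9 (Pearson r = 0.90), Calhm6 (0.90), Tap1 (0.87), Ubd (0.87), Psmb8 (0.86), Ccl5 (0.84), Bst2 (0.84), Gbp9 (0.82) and Psmb10 (0.82). Psmb9 lies next to Tap1 in the class II region and encodes an immunoproteasome subunit. After group means were removed, Tgtp2 (0.90), Igtp (0.85), Psmb9 (0.85), AW112010 (0.85) and Ubd (0.84) were nearest. Without Plod1-/- saline mouse 3 these within-group values were 0.73, 0.59, 0.72, 0.74 and 0.57. The 10 nearest over all mice were picked by this same correlation, so that any other non-member is farther off. Over all 20 mice the macrophage markers looked at, a part of the list of 11, had Csf1r at 0.56, Cd68 at 0.56, Adgre1 at 0.57 and C1qa at 0.64. These values rest in part on 1 mouse: without Plod1-/- saline mouse 3, Psmb9 stayed among the 10 nearest (0.88) but the first were Cdc123 (0.89), Arhgap18 (0.89), Oaf (0.89) and the B cell marker Cd79b (0.89). Without that mouse Csf1r was at 0.74, Cd68 at 0.75, Adgre1 at 0.75 and C1qa at 0.76. Beside them, Ubd was at 0.80, Igtp at 0.72, AW112010 at 0.69 and Tgtp2 at 0.59. With all mice Cd79b was at 0.75.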

How the data were processed

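RNA of 20 abdominal aortas was sequenced. The deposited FPKM values were made by the authors with HISAT2, StringTie, cuffquant and cuffnorm per the study's methods; the submitters' processing notes also list the build mm10, Bowtie2 2.2.3, HISAT2 2.1.0 and HTSeq 0.6.0. Read depth per library is not given in the sources used here, so no counting interval could be set, and precision is set by 5 mice per group. Ensembl identifiers were matched to GENCODE mouse release 21 symbols (43285 of 43422).

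FPKM were tested as log2(FPKM + 1) with limma 3.58.1 (R 4.3.3, empirical Bayes with a variance trend), on the 2 groups compared or, for the interaction, all 4, for genes with at least 1 FPKM in 5 mice, with Benjamini-Hochberg adjustment over all tested genes. A call needed an adjusted p below 0.05 and an absolute log2 fold change above 1. The script was tested on simulated data. Ciita and within-mouse ratios were compared by exact permutation tests. Named genes were the 7 members, the class II relatives and regulators, up to 4 called genes of each other list with the largest change, and the genes most like the members (10 over all mice, of which 1 is not reported here, and 5 within groups). Any other gene given (such as Csf1r, Adgre1, Acta2 and Ms4a1), the genes given for Plod1-/- saline mouse 3, the overlapping neighbours and the 4 genes nearest without that mouse were named after their values were seen, and list counts and correlations without it were added then. Members and lists were chosen with earlier results of these data known. Promoter windows were RefSeq's (GRCm38.p6). P-values set a difference between groups against the spread between mice. Alternatives were another pseudocount, no filter, no trend, weights per mouse, other scalings, 1 fit over all groups, a replicate block, and leaving out mice.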

Additional observations from a re-analysis of the deposited data

Results flagged for a closer look

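Plod1-/- saline mouse 3 lay far above the other 4 mice of its group for 6 of the 7 genes, by Dixon's test on log2(FPKM + 1) values. Its values were 174 FPKM for H2-Aa, 237 FPKM for H2-Ab1, 294 FPKM for H2-Eb1, 22.6 FPKM for H2-DMa, 24.5 FPKM for H2-DMb1 and 1.14 FPKM for Ciita. The gap to the next mouse was 0.77 to 0.85 of the group's range, against a critical value of 0.71. Cd74, at 333 FPKM, was also the highest but did not pass. In all, 28 combinations of gene and group were tested, of which chance flags about 1 in 20, and 6 passed, all from this 1 mouse. The 6 genes share that library, so that they are not 6 independent events.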

How the results depend on the processing

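The count of members called moved by over 1.5 times in 11 recomputations; it was 0 with all mice in 4 of the 5 comparisons, where any call counts as a move. For Ang II in Plod1-/- mice, the count of 0 members became 1 (H2-DMa) with a pseudocount of 0.1, weights per mouse or all 4 groups in 1 fit, and ranged from 0 to 5 when single mice were left out. For Ang II in WT mice it became 4 with weights per mouse and ranged from 0 to 1 without single mice, and between the Ang II groups it became 2 by the adjusted p alone and ranged from 1 to 3. For the interaction it ranged from 0 to 1. With a replicate block, the count for Ang II in Plod1-/- mice became 1 and no other count moved, but replicate numbers do not pair mice here, since same-numbered mice correlated between −0.33 and 0.42 in their deviations from group means. The interaction estimates of H2-Aa, H2-Ab1, H2-Eb1 and Cd74 crossed 0, while those of H2-DMa (0.53 to 1.25) and H2-DMb1 (0.00584 to 0.46) did not. With weights per mouse H2-Aa came to −0.18 and H2-Ab1 to −0.30, and without single mice they ranged from −0.0351 to 0.83 for H2-Aa, −0.00557 to 0.79 for H2-Ab1, −0.43 to 0.44 for H2-Eb1 and −0.34 to 0.50 for Cd74. Some log2 ratios also crossed 0 when single mice were left out. In WT mice with Ang II the ranges were −0.57 to 0.33 for Cd74/Csf1r, −0.56 to 0.37 for H2-Ab1/Csf1r, −0.0639 to 0.00330 for Cd74/H2-Ab1 and −0.38 to 0.00553 for H2-DMa/H2-Ab1. In Plod1-/- mice with Ang II they were −0.70 to 0.0505 for Cd74/Itgax and −0.35 to 0.38 for H2-Ab1/Itgax. Between the saline groups they were −0.0395 to 0.10 for Cd74/H2-Ab1, −0.0263 to 0.73 for Cd74/Itgax, −0.0589 to 0.67 for H2-Ab1/Itgax, −0.0167 to 0.76 for H2-Ab1/Ptprc and −0.13 to 0.0271 for H2-DMa/H2-Ab1, which was 0.0407 with a pseudocount of 0.1. The cause was not tested.

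Quantile normalization moved the median of all genes between the Ang II groups from 0.12 to −0.03 and the genes called from 920 higher and 453 lower to 744 and 612, while the median of the 6 members was 0.71. In Plod1-/- mice with Ang II it moved the median of all genes from 0.05 to −0.06, with the members at 0.76. No read counts entered these fits, and the precision of low values such as Ciita is unknown, and 5 mice per group limit each comparison. A fold change on the log2(FPKM + 1) scale understates the change of H2-DMa, H2-DMb1 and Ciita more than that of Cd74.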

Other observations

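Other genes of contact with T cells and of class II turnover were examined as lists. Tnfsf9, the 4-1BB ligand, a costimulatory molecule, was at 4.35, 4.04, 7.84, 6.51 and 4.12 FPKM in Plod1-/- Ang II mice and at 1.28 to 1.85 FPKM in Plod1-/- saline mice. It rose by 1.28 ± 0.17 (adjusted p = 0.000240, limma) in Plod1-/- mice, while WT mice were at −0.26 ± 0.15, and the interaction was 1.54 ± 0.23 (adjusted p = 0.000134, limma). Under saline Tnfsf9 was lower in Plod1-/- than in WT mice, at −0.49 ± 0.12 (adjusted p = 0.0353, limma), short of the fold required. Without saline mouse 3 that difference was −0.51 ± 0.13 (adjusted p = 0.0629, limma). Cd80, a ligand of CD28, had an interaction of 1.19 ± 0.29 (adjusted p = 0.00459, limma), and was at 0.791, 0.947, 3.59, 2.55 and 2.65 FPKM in Plod1-/- Ang II mice. Cd63, a tetraspanin of the late endosomes where class II molecules are loaded, was at 187 to 279 FPKM in Plod1-/- Ang II mice and at 67.9 to 151 FPKM in WT Ang II mice, and rose by 1.29 ± 0.23 between them (adjusted p = 0.00375, limma). Of the lists, 1 of 4 tested costimulation genes and 0 of 3 turnover genes were called in Plod1-/- mice with Ang II, and none of 3 of either in WT mice. Without saline mouse 3 the counts in Plod1-/- mice were 2 of 4 and 1 of 3, since Cd86, another ligand of CD28, went from 0.99 ± 0.22 to 1.11 ± 0.21 (adjusted p = 0.00324, limma) and Cd63 from 0.99 ± 0.13 to 1.04 ± 0.14 (adjusted p = 0.000664, limma), past the fold required.

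Dexi overlaps Ciita on the opposite strand, with 0.324% of the 100-base stretches of Ciita in common, and was at −0.65 ± 0.11 in Plod1-/- mice with Ang II (adjusted p = 0.000927, limma).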
